A study of Homo sapiens with 9 samples.

Results

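Nitric oxide and cyclic GMP (cGMP) genes were followed in human cranial neural crest cells (CNCCs) before and after acute loss of the transcription factor SOX9. The set held 8 of the 18970 genes counted: the synthases NOS1, NOS2 and NOS3, the NOS1 adaptor NOS1AP, the cyclase subunit GUCY1A2, the cGMP-dependent kinases PRKG1 and PRKG2, and the phosphodiesterase PDE5A. NOS1 was picked on its T>C reads, for the rise of those reads at 3h, and the other 7 genes were taken as members of the same pathway. All values of NOS1 are therefore a description with no test, because every contrast shares libraries with the choice of the gene. The other 7 genes and the gene lists below were chosen with earlier results of these data known. Their adjusted p-values do not account for that choice.

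The cells came from H9, an established embryonic stem cell line in which both SOX9 alleles carry a C-terminal tag of FKBP12-F36V, mNeonGreen and V5, so the 0h controls carry the tag too. dTAGV-1 is a small molecule that brings the tagged protein to a ubiquitin ligase for degradation. In SLAM-seq, 4-thiouridine taken up into new RNA is alkylated and read as a T>C conversion. T>C reads thus count RNA made during labelling. Unconverted reads (total minus T>C reads) count older RNA and any new RNA read without a conversion. No sample was left unlabelled, so the background of T>C reads is not known. The 9 samples were passage 4 CNCCs in 3 groups (0h, 3h and 24h of dTAGV-1 at 500 nM) of 3 samples each, all given 100 uM 4-thiouridine for 2 h, and this labelling started 1 h (3h group) or 22 h (24h group) into the dTAGV-1 treatment. The labels list the 500 nM concentration at 0h as well, where the relative SOX9 level is given as 100% against 0% in both other groups, and the treatment protocol names DMSO as the vehicle control. Each group held the same 3 cultures, S9CC13_R6, S9CC47_R5 and S9CC47_R6, from 2 tagged clones and 2 differentiation batches. No untagged culture was among them, so SOX9 loss cannot be told apart here from other effects of dTAGV-1 or of time in culture. In the main fits, p-values measure the spread of samples left after terms for time, batch and 1 surrogate variable. This variable is a pattern of variation estimated from the counts. In T>C reads it ran from -0.244 to 0.172 at 0h, -0.71 to 0.301 at 3h and 0.0293 to 0.539 at 24h. It was not balanced over time, so fitted changes can differ from those of normalized reads. The cultures are not fully independent, since 2 of the 3 share a clone and 2 share a batch.

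Nitric oxide synthases make nitric oxide from arginine. Nitric oxide diffuses to soluble guanylate cyclase, a heterodimer of an alpha and a beta subunit, which then makes cGMP. The cGMP-dependent kinases are its main effectors, and phosphodiesterases such as PDE5A end the signal by hydrolysing cGMP. The pathway is best known from the vessel wall, where it relaxes smooth muscle, and from neurons, where NOS1 is the main synthase.

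In brief, NOS1 was the only synthase with more than a few reads, and its T>C reads were 233.5 ± 27.5 normalized reads at 3h against 84.1 ± 30.7 at 0h and 128.2 ± 19.2 at 24h (SD, n = 3). Among the other 7 genes, PDE5A rose at both later times in T>C and in total reads, and PRKG2 rose in total reads at 24h. The T>C calls of PDE5A were lost without any 1 culture, and that at 24h was also lost under the replicate block (0.32, adjusted p = 0.176). Without the surrogate variable, PDE5A was called at neither time in T>C or in total reads. Its calls in total reads were also lost without S9CC13_R6, as was the PRKG2 call. NOS1AP, GUCY1A2 and PRKG1 were called in no contrast, and NOS2 and NOS3 lay near the limit of detection.

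T>C reads per library ranged from 3130673 to 5475800 and total reads from 16955633 to 28782678, and the T>C share of a library was 15.92% to 19.52% at 3h, 18.53% to 20.12% at 0h and 19.81% to 21.3% at 24h. All 12 cranial neural crest markers reached 1 CPM (counts relative to the library's total) in at least 3 samples. Their summed level was 4514 to 4590 CPM at 0h, 5411 to 5647 at 3h and 6705 to 7089 at 24h. The list includes SOX9 itself, at 736 to 1862 CPM over all samples, and MSX1, at 594 to 1553 CPM, so the sum does not show the markers moving alike. Of markers of other cells, 7 of 8 neuronal, 4 of 6 smooth muscle, 3 of 6 pluripotent (LIN28A, DPPA4 and L1TD1, with POU5F1 and NANOG at or near 0), 2 of 6 endothelial and 0 of 6 macrophage genes reached that level. The summed neuronal level was 110.1 to 132.6 CPM at 0h, 110.4 to 128.5 at 3h and 103.0 to 119.7 at 24h, and the summed smooth muscle level was 46.2 to 67.9, 41.4 to 67.3 and 39.7 to 81.1. The endothelial sum was 17.9 to 29.0 CPM at 0h, 16.6 to 24.2 at 3h and 9.79 to 15.1 at 24h. Most of it was ERG, at 8.33 to 25.2 CPM over all samples, with the defining marker PECAM1 at 0.272 CPM or less in every sample. The pluripotent sum was 811 to 888 CPM at 0h, 741 to 810 at 3h and 741 to 820 at 24h. The part of other cells in the results below was not tested, and in bulk samples fewer cells of a type and less RNA per cell cannot be told apart.

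The start regions of the genes that stood out are shown because they are the sequence next to which their transcription begins. NOS1 lies on chromosome 12 (hg38, chr12:117208142-117452170, minus strand, 29 exons in its canonical transcript) and has several annotated starts, of which the windows of 2 are given. The assay reads the 3′ ends of transcripts, and the last exon of the canonical NOS1 transcript spans 117208142 to 117215324. The counts are per gene and carry no position, so they do not tell the starts apart. PDE5A (chr4:119494397-119628804) and PRKG2 (chr4:81087370-81215222) lie on the minus strand of chromosome 4. Each window holds 250 bases before the start and 50 after it, 5′ to 3′ on the gene's strand, and capitals mark a match to either of 2 motifs searched on both strands, the SOX core ACAAT and the cyclic AMP response element half-site TGACG. The first NOS1 window starts from the GENCODE canonical transcript (chr12:117361577-117361876), and the others are from RefSeq on GRCh38.p14 (NOS1 chr12:117309361-117309660, PDE5A chr4:119628755-119629054 and PRKG2 chr4:81215173-81215472).
NOS1, GENCODE canonical start: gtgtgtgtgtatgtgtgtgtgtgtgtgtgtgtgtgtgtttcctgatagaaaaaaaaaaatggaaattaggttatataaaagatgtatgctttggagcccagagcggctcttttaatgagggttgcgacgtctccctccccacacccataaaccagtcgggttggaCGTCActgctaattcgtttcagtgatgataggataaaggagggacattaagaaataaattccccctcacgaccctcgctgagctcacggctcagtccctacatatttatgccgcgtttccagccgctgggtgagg
NOS1, RefSeq start: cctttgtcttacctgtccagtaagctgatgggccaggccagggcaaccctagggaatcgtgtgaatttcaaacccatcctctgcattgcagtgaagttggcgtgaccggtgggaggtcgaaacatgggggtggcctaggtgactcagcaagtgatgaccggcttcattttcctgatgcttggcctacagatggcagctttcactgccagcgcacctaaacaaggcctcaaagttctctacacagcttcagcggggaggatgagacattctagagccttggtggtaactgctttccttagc
PDE5A, RefSeq start: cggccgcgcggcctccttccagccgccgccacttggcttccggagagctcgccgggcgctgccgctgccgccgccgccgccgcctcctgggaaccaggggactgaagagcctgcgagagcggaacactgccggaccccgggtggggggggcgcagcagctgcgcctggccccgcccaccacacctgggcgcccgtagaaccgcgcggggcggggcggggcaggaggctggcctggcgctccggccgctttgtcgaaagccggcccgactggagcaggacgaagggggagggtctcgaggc
PRKG2, RefSeq start: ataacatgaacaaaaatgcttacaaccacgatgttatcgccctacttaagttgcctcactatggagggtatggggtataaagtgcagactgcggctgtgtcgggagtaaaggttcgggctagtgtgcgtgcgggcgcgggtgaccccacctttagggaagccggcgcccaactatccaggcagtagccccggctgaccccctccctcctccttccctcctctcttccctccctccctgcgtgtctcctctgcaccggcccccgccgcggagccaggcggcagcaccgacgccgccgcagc
The canonical NOS1 window held 1 half-site, in the reverse orientation CGTCA, and no ACAAT. The other 3 windows held neither motif. Over 35116 RefSeq windows of 300 bases, 27.4% held ACAAT and 24.6% held TGACG in either orientation. The RefSeq window of NOS1 was 53.3% G and C, that of PRKG2 62.3% and that of PDE5A 77.3%.

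NOS1 makes nitric oxide in response to calcium and calmodulin. With cultures always listed as S9CC13_R6, S9CC47_R5 and S9CC47_R6, its T>C reads were 70, 50 and 156 at 0h, 174, 240 and 225 at 3h and 117, 120 and 201 at 24h. After normalization for library depth, these were 72.9, 60.5 and 118.8 at 0h, 230.2, 207.9 and 262.6 at 3h and 110.9, 124.6 and 148.9 at 24h. The 3h samples were the highest of all, the lowest of them lying above every sample of the other times, while the 24h and 0h ranges overlapped through S9CC47_R6 at 0h. In order, 3h came first, then 24h, then 0h, and only the last neighbours overlapped. In the DESeq2 fit the log2 fold change was 1.50 (SE 0.229) at 3h against 0h, 0.54 (SE 0.244) at 24h against 0h and -0.96 (SE 0.25) at 24h against 3h. Single cultures moved the values that involve 24h: against 0h it was 0.95 without S9CC13_R6, 0.25 without S9CC47_R5 and 0.81 without S9CC47_R6, and against 3h it was -0.54 without S9CC13_R6. The difference at 3h was the largest of 8676 genes with a mean of 50 or more normalized T>C reads, and this is the value that chose the gene.

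The same values can be given by culture. The log2 difference of normalized T>C reads between 3h and 0h was 1.64 in S9CC13_R6, 1.76 in S9CC47_R5 and 1.14 in S9CC47_R6, from the libraries that chose the gene. Between 24h and 0h it was 0.60, 1.03 and 0.32, smaller than the 3h difference in all 3 cultures. Groups that do not overlap with the later one higher were found for 5.72% of the 12037 genes tested at 3h, and for NOS1 this overlap is part of what chose it.

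**Figure D1:**
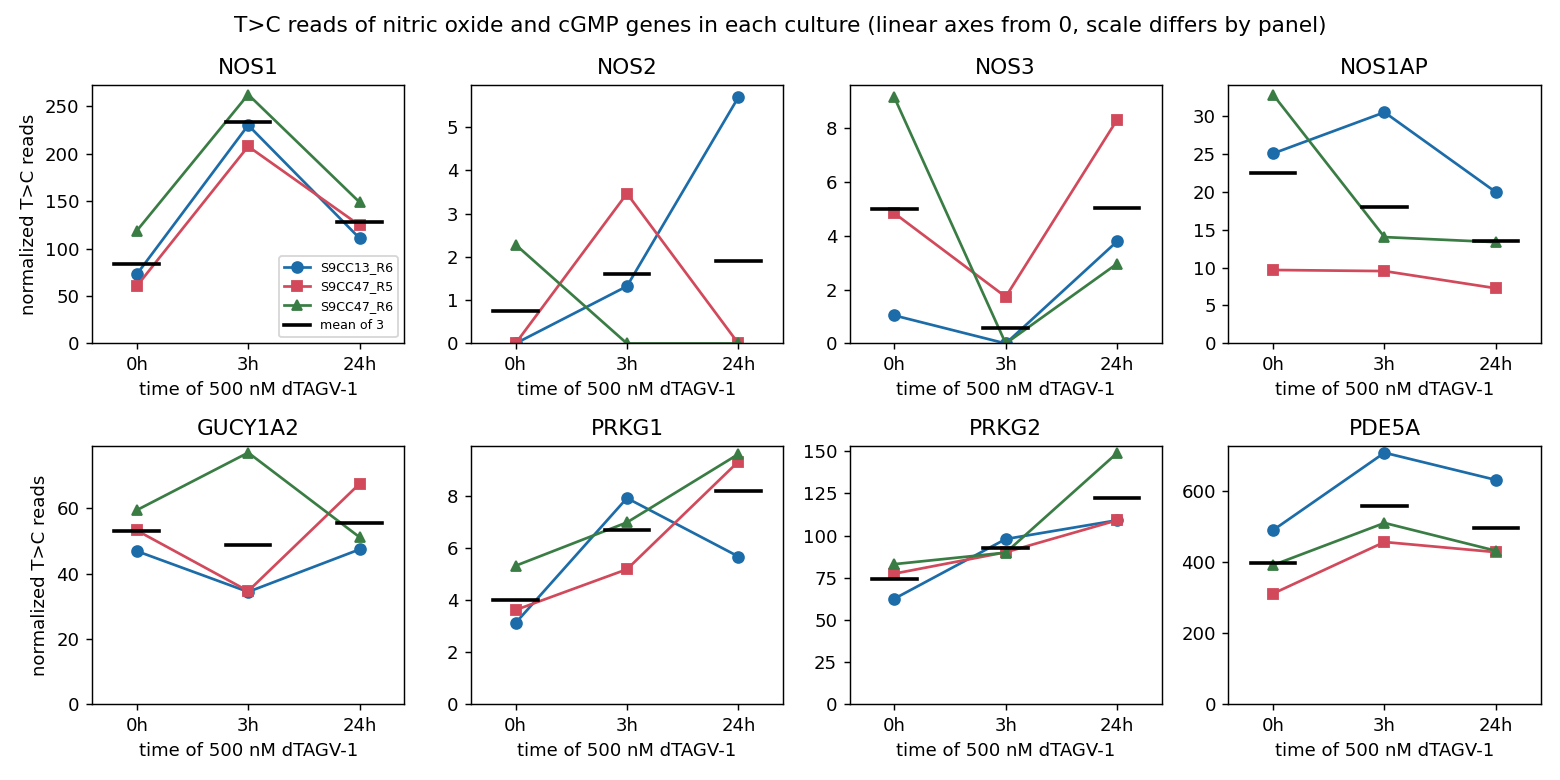
Normalized T>C reads (counts divided by size factors, linear axes from 0 that differ between panels) of the 8 genes at 0h, 3h and 24h of dTAGV-1, with a line for each of the 3 cultures and a black bar for the mean. NOS1 peaked at 3h in all 3 cultures, PRKG2 was highest at 24h and PDE5A was lowest at 0h, while NOS2, NOS3 and PRKG1 stayed below 10 normalized reads.

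Total reads of NOS1 moved less at 3h. They were 383, 325 and 627 at 0h, 658, 721 and 611 at 3h and 568, 556 and 942 at 24h, which after normalization gave 386.6, 417.3 and 485.8, then 729.1, 599.5 and 719.7, then 548.7, 621.6 and 774.6. Both later groups lay above the 0h group without overlap and overlapped with each other. The log2 fold change of total reads was 0.69 (SE 0.138) at 3h, 0.53 (SE 0.145) at 24h and -0.16 (SE 0.152) between 24h and 3h. At 3h it placed NOS1 at rank 53 of 10633 genes with a mean of 50 or more normalized total reads. Non-overlapping groups with the later one higher were found for 4.29% of the 11710 genes tested in total reads at 3h and 13.6% at 24h.

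T>C reads are part of total reads, so the unconverted reads were taken on their own. Normalized unconverted reads of NOS1 were 309.6, 361.8 and 365.0 at 0h, 495.4, 390.7 and 454.3 at 3h and 438.1, 502.0 and 639.4 at 24h. Their mean increased from time to time, from 345.4 ± 31.1 to 446.8 ± 52.7 and 526.5 ± 102.8 (SD, n = 3), and S9CC47_R6 at 24h was the highest sample. The log2 fold change was 0.40 (SE 0.153) at 3h and 0.55 (SE 0.16) at 24h. The T>C value set beside it was 1.50 at 3h and 0.54 at 24h. Without S9CC13_R6 the unconverted value was 0.19 at 3h, and at 24h it ran from 0.48 to 0.57 with 1 culture left out, where the T>C value ran from 0.25 to 0.95.

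The T>C share of NOS1 reads gives the same comparison in percent. It was 18.3%, 15.4% and 24.9% at 0h, 26.4%, 33.3% and 36.8% at 3h and 20.6%, 21.6% and 21.3% at 24h. Each 3h share exceeded every share of the other times, although the lowest 3h share (Wilson 95% interval 23.2% to 29.9%) and the highest 0h share (interval 21.7% to 28.4%) had intervals that overlapped. These intervals cover counting error only, since reads without molecular identifiers are not independent molecules. Gaps in share were not counted over all genes, and NOS1 was chosen by its T>C reads at 3h. Divided by the share of its own library, the NOS1 share stood at 1.02 ± 0.282 in the 0h group, 1.79 ± 0.118 in the 3h group and 1.03 ± 0.0282 in the 24h group (SD, n = 3). At 0h the cultures went both ways, from 0.765 in S9CC47_R5 to 1.32 in S9CC47_R6, and the intervals of both excluded their library's share. In a fit of T>C against unconverted reads with the library as a block, the difference of NOS1 was 1.10 (SE 0.227) on the log2 scale at 3h, 0.02 (SE 0.23) at 24h and -1.09 (SE 0.218) between 24h and 3h. The 24h value had no stable sign, running from -0.20 to 0.33 with 1 culture left out.

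**Figure D2:**
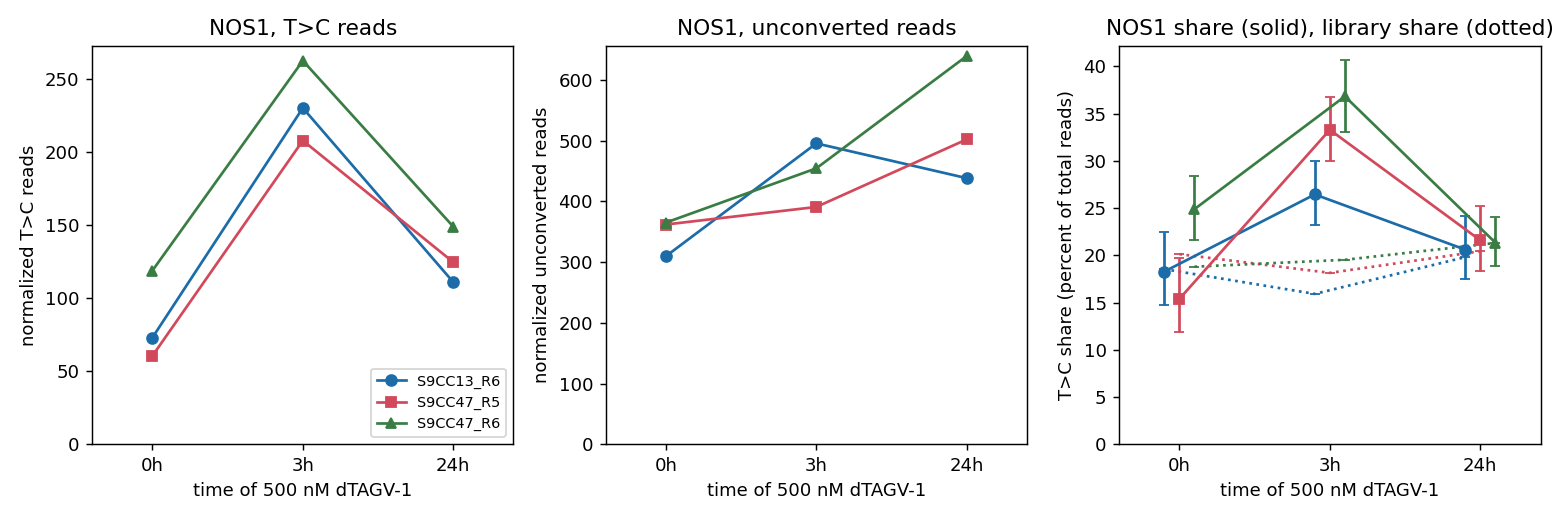
NOS1 in each of the 3 cultures at 0h, 3h and 24h: normalized T>C reads, normalized unconverted reads and the T>C share of its reads (percent, solid lines, bars are Wilson 95% intervals) with the share of the whole library (dotted lines). T>C reads and the share were highest at 3h, where the NOS1 share was 26.4% to 36.8% against 15.92% to 19.52% for the libraries, while unconverted reads had their highest mean at 24h.

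NOS2, the inducible synthase of immune responses, and NOS3, the endothelial synthase, were barely detected. NOS2 had 0 to 6 T>C reads and 1 to 9 total reads per sample and did not reach 1 CPM in 3 samples, so it was tested in neither table. T>C reads of NOS3 numbered 1, 4 and 12 at 0h, 0, 2 and 0 at 3h and 4, 8 and 4 at 24h, and its total reads ran from 1 to 22. It entered the T>C test through 3 samples (2 at 0h and 1 at 24h, none at 3h), and it was not called at 3h (adjusted p = 0.629) or at 24h (adjusted p = 0.973, DESeq2). A change of either gene could not be measured at this depth. The last exon of NOS3 (chr7:150991017-151014588, plus strand) overlaps ATG9B on the other strand, and whether counting used strand is not given in the sources used here, so even these few NOS3 reads are uncertain.

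NOS1AP is an adaptor that binds the PDZ domain of NOS1 and links it to other proteins. Its T>C reads were 24, 8 and 43 at 0h, 23, 11 and 12 at 3h and 21, 7 and 18 at 24h, and the 3 groups overlapped. S9CC47_R5 had the fewest at each time. Its total reads were 108, 51 and 121 at 0h, 100, 85 and 59 at 3h and 71, 47 and 73 at 24h. The log2 fold change of total reads was -0.17 (95% interval -0.67 to 0.32) at 3h and -0.39 (-0.92 to 0.14) at 24h, and NOS1AP was not called in either (adjusted p = 0.975 and 0.394). Within cultures, normalized total reads at 24h were below those at 0h by log2 differences of -0.66, -0.31 and -0.63 and below those at 3h by -0.68, -0.42 and -0.21. The 24h group did not overlap the 3h group in total reads, nor either earlier group in unconverted reads. Such gaps with 24h lower were found for 10.7% of genes in total reads against 3h, and in unconverted reads for 13.2% against 0h and 10.4% against 3h.

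GUCY1A2 encodes the alpha-2 subunit of soluble guanylate cyclase, the receptor of nitric oxide. Its T>C reads were 45, 44 and 78 at 0h, 26, 40 and 66 at 3h and 50, 65 and 69 at 24h, and total reads were 93, 82 and 170, then 71, 122 and 146, then 135, 135 and 147. The cultures went different ways: at 3h, normalized T>C reads were lower than at 0h in S9CC13_R6 and S9CC47_R5 and higher in S9CC47_R6. The log2 fold change of T>C reads was -0.10 (95% interval -0.78 to 0.58) at 3h and -0.14 (-0.84 to 0.57) at 24h, and that of total reads 0.11 (-0.39 to 0.61) and 0.13 (-0.39 to 0.65). None of these was called, and each interval holds changes in both directions.

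PRKG1 and PRKG2 encode the cGMP-dependent kinases of type I, known from smooth muscle and neurons, and type II, known from cartilage, bone and gut. PRKG1 had 3 to 13 T>C reads and 19 to 42 total reads per sample. It reached 1 CPM in T>C reads in 1 sample at 0h, 3 at 3h and 3 at 24h. Its entry into the T>C test thus rested on the later groups, where it was higher, so that direction is a description. After normalization its T>C reads were above those at 0h in all 3 cultures at both times, but the counts are small. The log2 fold changes of 0.72 (SE 0.897) and 1.00 (SE 0.921) were not called (adjusted p = 0.991 and 0.739, DESeq2). The last exon of PRKG1 is overlapped by PRKG1-AS1 on the other strand.

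PRKG2 rose by 24h in total reads. These were 208, 168 and 278 at 0h, 244, 288 and 205 at 3h and 383, 279 and 455 at 24h, or 210.0, 215.7 and 215.4, then 270.4, 239.5 and 241.5, then 370.0, 311.9 and 374.1 after normalization. The 3 groups did not overlap, with 0h lowest and 24h highest in every culture. The log2 fold change was 0.73 (SE 0.157, adjusted p = 1.47e-04, DESeq2) at 24h against 0h and 0.50 (SE 0.166, adjusted p = 0.0649) at 24h against 3h, and 0.23 (SE 0.153, adjusted p = 0.837) at 3h, which was not called. Unconverted reads rose likewise at 24h, by 0.76 (SE 0.189, adjusted p = 0.00169) against 0h and by 0.59 (SE 0.199, adjusted p = 0.0786) against 3h. The latter call was lost with any 1 culture left out (0.41 to 0.71), without the surrogate variable (0.52, adjusted p = 0.101), with a mean count of 20 required (0.59, adjusted p = 0.113) and at an adjusted p under 0.05. The former call was lost without S9CC13_R6 (0.57) or S9CC47_R6 (0.69). Without S9CC13_R6 the 24h change in total reads was 0.55 and was not called, in a fit that called 163 genes in all against 1751 with every culture. The call between 24h and 3h was lost without S9CC13_R6 (0.40) and without S9CC47_R5 (0.60).

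T>C reads of PRKG2 had the same order of groups. They were 60, 64 and 109 at 0h, 74, 104 and 77 at 3h and 115, 105 and 201 at 24h, and after normalization 62.5 to 83.0, 89.9 to 97.9 and 109.0 to 148.9, again without overlap. Groups that did not overlap with the later one higher made up 5.72% of genes for 3h against 0h, 11.0% for 24h against 0h and 8.91% for 24h against 3h in T>C reads, and 4.29%, 13.6% and 10.8% in total reads. At 3h the log2 fold change of T>C reads was 0.35 (SE 0.249, adjusted p = 0.911), and at 24h it was 0.66 (SE 0.256, adjusted p = 0.159), and neither was called. At 24h a fit that took the culture as a replicate block gave 0.72 and called PRKG2 (adjusted p = 0.0685), as did edgeR (adjusted p = 0.0608) and the fit without a surrogate variable (adjusted p = 0.0817).

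PDE5A hydrolyses cGMP and so ends its signal. Its T>C reads were 471, 258 and 515 at 0h, 536, 528 and 438 at 3h and 667, 413 and 584 at 24h, or 490.7, 312.0 and 392.3, then 709.1, 457.3 and 511.1, then 632.4, 428.9 and 432.7 normalized reads. After normalization S9CC13_R6 was the highest culture at each time, so the groups overlapped, but within each culture both later samples lay above the 0h sample. PDE5A rose in T>C reads by 0.40 on the log2 scale (SE 0.128, adjusted p = 0.0931) at 3h and by 0.48 (SE 0.134, adjusted p = 0.0138) at 24h. It was called alone of the 6 genes tested besides NOS1 at each time, where 1.79% and 4.98% of all 12037 genes were called. Between 24h and 3h, none of the 6 was called by DESeq2 (1.14% of all genes), none by edgeR, and none had an unadjusted p under 0.05. For PDE5A the fitted difference was 0.08 (adjusted p = 0.973, DESeq2), although normalized T>C reads were lower at 24h than at 3h in all 3 cultures. Over the alternatives this fitted difference ran from -0.17 to 0.17.

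Total reads of PDE5A were 1119, 577 and 1262 at 0h, 1475, 1216 and 997 at 3h and 1614, 923 and 1311 at 24h. They rose by 0.34 (SE 0.0987, adjusted p = 0.0343) at 3h and by 0.51 (SE 0.103, adjusted p = 3.37e-05) at 24h, and were higher than at 0h in all 3 cultures after normalization. At 3h PDE5A was called alone of the 5 genes tested in total reads besides NOS1 (1.89% of 11710 genes). At 24h PDE5A and PRKG2 were 2 of 5 (15.0% of all genes), and between 24h and 3h PRKG2 was 1 of 5 (5.39%). Unconverted reads gave 0 of 5 at 3h by DESeq2 (1.1% of 11529 genes; 1 of 5, PDE5A, at an unadjusted p under 0.05, and 0 by edgeR), 2 of 5 at 24h (12.1%) and 1 of 5 between 24h and 3h (4.59%). With counts of 1 or 2 out of 5 or 6 genes, these shares say little about the set.

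The calls of PDE5A depended on how the cultures were modelled. Its T>C change at 24h was 0.32 with the culture as a replicate block (adjusted p = 0.176), and without the surrogate variable it was 0.49 at 3h (adjusted p = 0.274) and 0.33 at 24h (adjusted p = 0.36), none called. Size factors from total reads also ended the T>C call at 3h (0.32, adjusted p = 0.271). Without any 1 of the 3 cultures, neither T>C change was called, with values of 0.42 to 0.54 at 3h and 0.40 to 0.54 at 24h. In total reads, the changes at both times were not called without S9CC13_R6 (0.39 and 0.51), and that at 3h not without S9CC47_R5 (0.39). Without the surrogate variable neither was called (0.43, adjusted p = 0.539, and 0.37, adjusted p = 0.161), while total reads could not be fitted without S9CC47_R6.

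**Figure D3:**
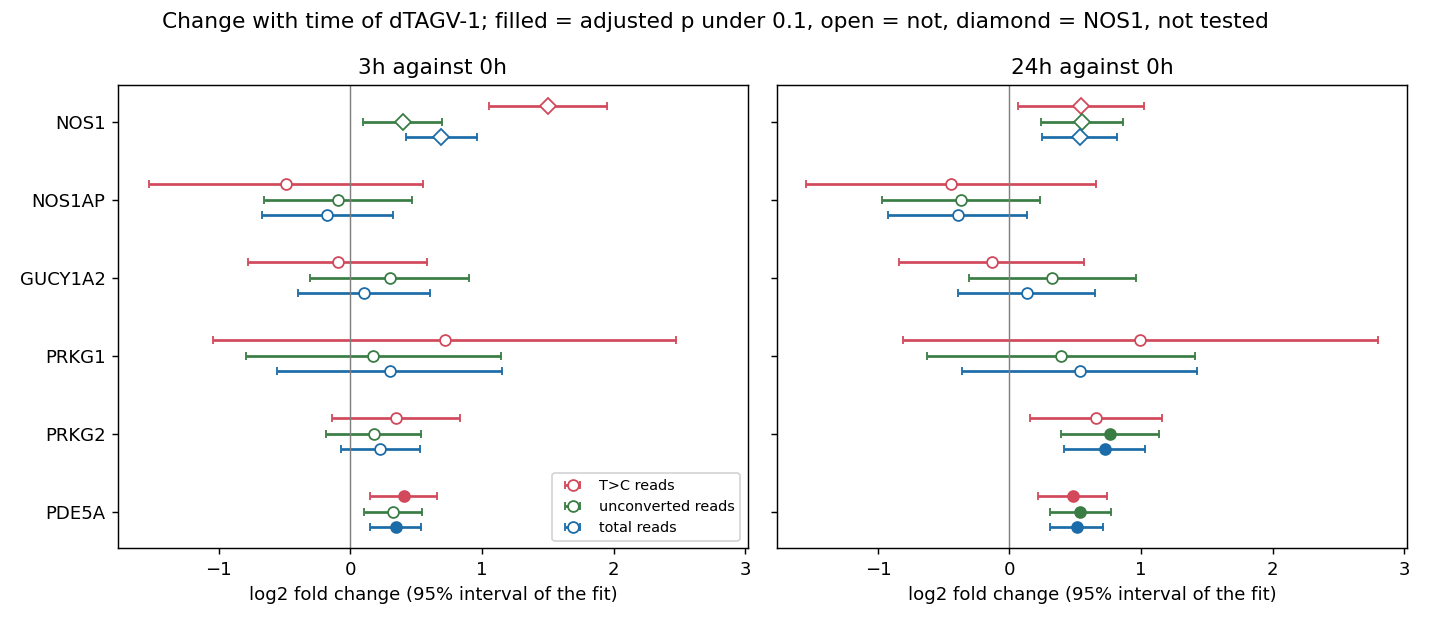
Log2 fold changes (x axis, bars are 95% intervals of the fit) of NOS1 and the 5 other genes tested in all 3 kinds of reads, at 3h and at 24h against 0h, in T>C, unconverted and total reads. Filled points passed an adjusted p under 0.1, open points did not, and diamonds mark NOS1, which was not tested: its T>C value of 1.50 at 3h lay well apart from its unconverted value of 0.40, and PDE5A and PRKG2 are the genes with filled points.

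The fit of T>C against unconverted reads asked whether the labelled part of a gene's reads moved with time. For PDE5A the difference was 0.09 (95% interval -0.18 to 0.36) at 3h and -0.04 (-0.31 to 0.23) at 24h, and for PRKG2 0.12 (-0.45 to 0.69) and 0.01 (-0.54 to 0.56). Neither gene's labelled share moved by more than these intervals allow. In GUCY1A2 (-0.48, interval -1.24 to 0.29), NOS1AP (-0.35, -1.51 to 0.80) and PRKG1 (0.53, -1.27 to 2.33) the 3h intervals were wide. None of the 5 genes tested besides NOS1 was called by DESeq2 in any of the 3 contrasts (0.343% of 11361 genes called at 3h, 0.0176% at 24h and 0.863% between 24h and 3h), none by edgeR, and none had an unadjusted p under 0.05.

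The genes differed in how much of their RNA carried label, at every time. The T>C share of PDE5A was 42.5% ± 1.99 (SD, n = 3) at 0h, 41.2% ± 4.24 at 3h and 43.5% ± 1.92 at 24h, more than 2 times the library share in each sample. The samples of GUCY1A2 ran from 45.9% to 53.7% at 0h, 32.8% to 45.2% at 3h and 37.0% to 48.1% at 24h, and PRKG2 was at 35.4% ± 5.69, 34.7% ± 3.83 and 37.3% ± 7.08 at these times. NOS1AP stood lower, at 24.5% ± 10.1, 18.8% ± 5.21 and 23.0% ± 7.47, and PRKG1 at 16.9% ± 4.52, 21.5% ± 6.19 and 28.3% ± 13.3. For NOS1 all 3 samples at 3h lay above all samples of 0h and 24h, which follows in part from its choice by T>C reads at 3h. In GUCY1A2 all samples at 3h lay below all samples of 0h, but not below those of 24h. How many of all genes had a gap in share in either direction was not counted. A read with more T has more chances of a conversion: T made up 28.0% of the last 300 bases of the canonical NOS1 transcript, against 36.3% in PDE5A, 37.0% in PRKG2, 36.0% in GUCY1A2, 40.3% in NOS1AP and 42.0% in PRKG1. The part of base composition in the differences between genes was not tested.

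**Figure D4:**
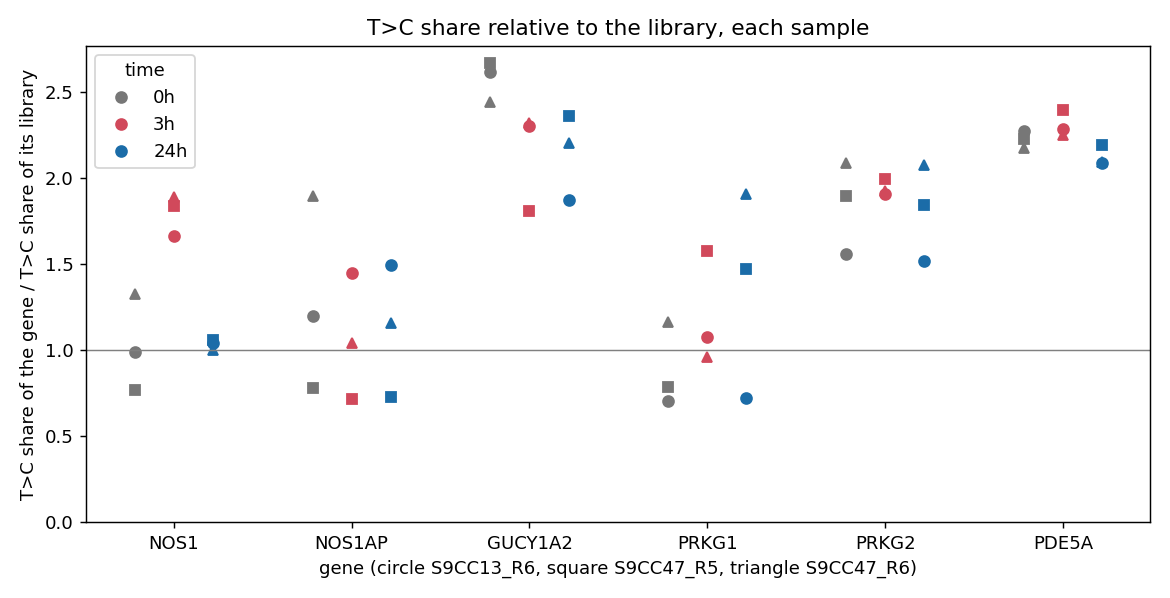
T>C share of each gene divided by the T>C share of its library (y axis, ratio, line at 1), for the 6 genes with enough reads; colours are times and symbols the 3 cultures. NOS1 lay between 0.765 and 1.32 at 0h (mean 1.02), had a mean of 1.03 at 24h and lay at 1.66 to 1.89 at 3h, while PDE5A lay above 2 in all 9 samples.

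A list of 57 other nitric oxide and cGMP genes gave the surroundings of the 8 genes: cyclases, natriuretic peptides and receptors, synthase partners, cofactor and arginine supply, phosphodiesterases, channels and kinase targets. All had a row in both tables (IRAG1 under its older symbol MRVI1), and 35 passed the filter in T>C reads and 37 in total reads. The natriuretic peptides NPPA and NPPC, the membrane cyclases GUCY2C, GUCY2D and GUCY2F and the channels CNGA1 and CNGA3 had a median of 0 total reads. In T>C reads, 1 of 35 was called at 3h (VASP, higher; 2.86% against 1.79% of all genes) and 2 of 35 at 24h (CALM2 and VASP, both higher; 5.71% against 4.98%). Between 24h and 3h, 0 of 35 were called by DESeq2 (1.14% of all genes), 2 had an unadjusted p under 0.05, and edgeR called 1. The median log2 fold change of the list was 0.01 at 3h and 0.02 at 24h, against -0.01 and 0.00 over all genes tested.

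VASP, a regulator of actin filaments and a substrate of the cGMP-dependent kinases, was the gene of the list called in T>C reads at both times. Its T>C reads were 121, 141 and 170 at 0h, 157, 258 and 176 at 3h and 289, 227 and 361 at 24h. They rose by 0.61 (SE 0.18, adjusted p = 0.0531) at 3h and by 0.85 (SE 0.186, adjusted p = 3.56e-04) at 24h. The 3h call of VASP was lost with the culture as a replicate block, without the surrogate variable and without any 1 culture.

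In total reads, 0 of 37 were called at 3h by DESeq2 (1.89% of all genes) and none by edgeR, and 2 had an unadjusted p under 0.05. At 24h, 8 of 37 were called (21.6% against 15.0% of all genes), 4 higher and 4 lower. The genes that rose were VASP, by 0.55 (SE 0.137, adjusted p = 0.00134), CALM2, by 0.51 (SE 0.0973, adjusted p = 7.14e-06), DYNLL1, by 0.33 (SE 0.0849, adjusted p = 0.00286), and ADH5, by 0.26 (SE 0.0984, adjusted p = 0.0727). CALM2 encodes calmodulin, which NOS1 needs for activity, DYNLL1 encodes a light chain of dynein that binds NOS1, and ADH5 reduces S-nitrosoglutathione. CALM2 and DYNLL1 have pseudogene copies that could share reads with them.

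The genes that fell in total reads at 24h were GUCY1A1, DDAH1, ARG2 and QDPR. DDAH1 degrades a methylated arginine that inhibits the synthases, and it fell by 0.71 (SE 0.137, adjusted p = 1.15e-05), from 573.2 ± 144.9 to 353.6 ± 77.8 normalized reads (SD, n = 3). QDPR, which recycles the synthase cofactor tetrahydrobiopterin, fell by 0.46 (SE 0.0932, adjusted p = 4.12e-05), and ARG2, an arginase that uses the same substrate, fell by 0.62 (SE 0.226, adjusted p = 0.0544). GUCY1A1, the alpha-1 subunit of the cyclase, had 36, 19 and 33 total reads at 0h, 37, 34 and 22 at 3h and 7, 9 and 18 at 24h. It fell by 1.37 (SE 0.531, adjusted p = 0.0771), on few reads, while the beta subunit GUCY1B1 was at 0.36 (SE 0.397, adjusted p = 0.635).

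Between 24h and 3h, 4 of 37 were called in total reads (10.8% against 5.39% of all genes): CALM2 and DYNLL1 were higher and DDAH1 and QDPR lower. With the culture as a replicate block, 8 were called, in a fit that called 1546 of all 11710 genes against 631 without the block. Without S9CC13_R6, 0 of the list were called in total reads at 24h against 0h and 1 between 24h and 3h. In T>C against unconverted reads, 0 of 34 were called at 3h by DESeq2 (5 at an unadjusted p under 0.05, 0 by edgeR) and 0 at 24h (4 at an unadjusted p under 0.05, 0 by edgeR), and 2 between 24h and 3h (5.88% against 0.863% of all genes, and 0 to 1 gene with a culture left out). These 2 were CALM3 and DDAH2, named here after their values were seen.

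**Figure D5:**
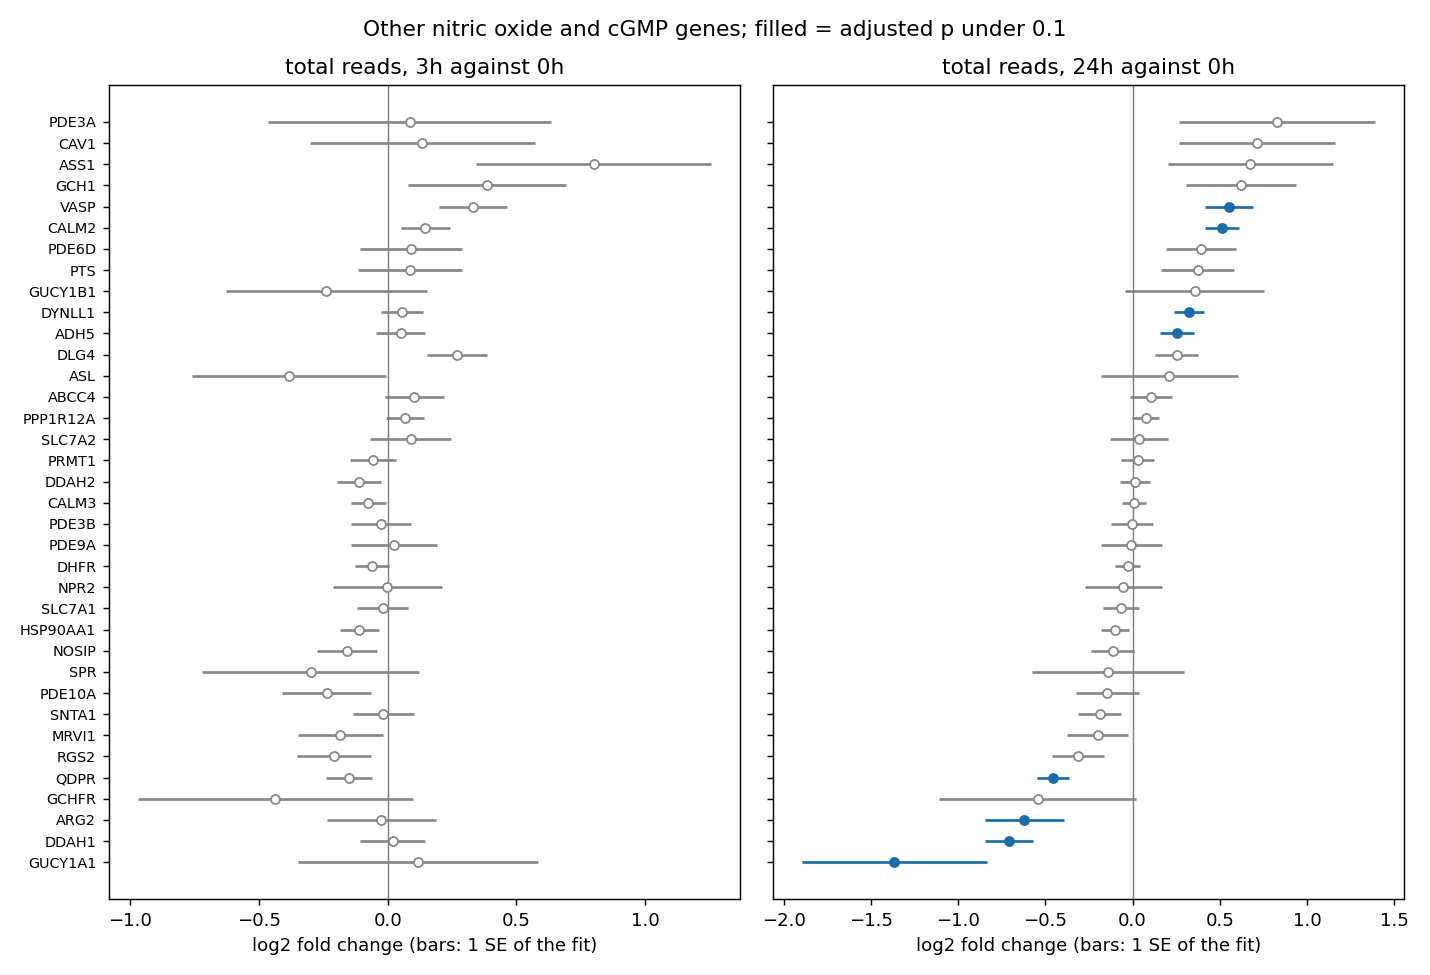
Log2 fold changes of total reads (x axis, bars are 1 SE of the fit, scales differ between panels) of 36 of the 37 genes of the list tested in total reads, at 3h and 24h against 0h, in the order of their 24h values. Filled points passed an adjusted p under 0.1: none at 3h, and at 24h VASP, CALM2, DYNLL1 and ADH5 on the higher side and QDPR, ARG2, DDAH1 and GUCY1A1 on the lower.

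The 5 genes whose T>C pattern over the 9 samples was most like that of NOS1 were taken by Pearson's r of log2(normalized T>C reads + 1) among 8675 genes with a mean of at least 50. They were STAT3 (r = 0.918), a transcription factor of cytokine signalling, PANK1 (0.911), a kinase of coenzyme A synthesis, JAKMIP2 (0.909), NECTIN2 (0.905), a cell adhesion protein, and RITA1 (0.899), which binds the Notch factor RBPJ. All 9 points come from the same libraries, whose depth and labelling they share, so these values are a description. The choice by likeness fixes a peak at 3h, and their log2 differences were 0.39 in PANK1 to 0.78 in NECTIN2 at 3h and 0.07 to 0.26 at 24h. Of the other members with enough reads, PDE5A had an r of 0.54 with NOS1, PRKG2 0.41 and GUCY1A2 -0.10.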

How the data were processed

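SLAM-seq T>C and total reads of 9 samples were analysed, grouped by the time in the sample titles. The values deposited by the authors are raw counts per gene symbol, in one table for each kind of reads, without normalization. According to their methods, skewer removed adapters from read 1, poly(A) was trimmed, and slamdunk did the mapping and counting; the labels name hg38. The counted 3′ intervals and the use of strand are not given in the sources used here. All 9 value columns of each kind were used.

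Genes were matched by symbol to GENCODE 44 (18451 of 18970 symbols, 11 more by RefSeq symbol and 390 by synonym). Counts of all 9 samples entered DESeq2 (1.42.0, R 4.3.3) with terms for time, batch of differentiation and 1 surrogate variable (svaseq, sva 3.50.0). Tests covered protein-coding genes that had 1 CPM or more in 3 samples, without independent filtering, and calls were made at a Benjamini-Hochberg adjusted p under 0.1. Unconverted reads are total minus T>C counts. T>C against unconverted reads was the interaction of read type and time in 1 fit of 18 columns with the library as a block. Shares carry Wilson 95% intervals. Normalized reads are counts divided by size factors. Levels and shares were described but not tested between genes.

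The members and gene lists were chosen with earlier results of these data known. Of the pathway list, genes called in T>C or total reads in any contrast were named, or the 10 with the lowest adjusted p if there were more. Of this list, 1 gene enters the counts and is not reported here by name. The 5 genes most like NOS1 were named by Pearson's r.

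The cultures pair samples across times by clone and batch, as the titles give them. Deviations of same-culture samples from the group means correlated at 0.172 on average in T>C reads (-0.0709 to 0.519 over 9 pairs) and at 0.279 in total reads (-0.0629 to 0.626). Alternatives were the culture as a replicate block, edgeR (4.0.16) with TMM, TMM factors in DESeq2, no surrogate variable, genes with at least 1 count or a mean of at least 20, an adjusted p under 0.05, size factors of total reads for T>C reads, and each culture left out.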

Additional observations from a re-analysis of the deposited data

Results flagged for a closer look

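Some changes differed between 24h and 3h of dTAGV-1 by a test of that difference in the DESeq2 fit. In total reads, the 24h value was above the 3h value by 0.50 on the log2 scale for PRKG2 (adjusted p = 0.0649), by 0.37 for CALM2 (adjusted p = 0.0164) and by 0.27 for DYNLL1 (adjusted p = 0.0664). It was below it for DDAH1, with a log2 difference of -0.73 (adjusted p = 6.97e-05), and for QDPR, with -0.31 (adjusted p = 0.052). In unconverted reads, PRKG2 was higher at 24h by 0.59 (adjusted p = 0.0786). Both times were set against the same 0h samples, and groups of 3 were not examined for single samples that stand apart.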

How the results depend on the processing

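The NOS1 T>C difference at 3h ranged from 1.41 to 1.50 over the alternatives and from 1.38 to 1.72 with 1 culture left out, where its T>C value at 24h ran from 0.25 to 0.95 against 0h and from -1.13 to -0.54 against 3h. In total reads between 24h and 3h its value turned from -0.16 to 0.030 without S9CC13_R6 (-0.28 to 0.030 with any culture left out). In T>C against unconverted reads at 24h it turned from 0.02 to -0.017 with edgeR, to -0.0035 with TMM factors, to -0.0099 without S9CC13_R6 and to -0.20 without S9CC47_R5 (-0.20 to 0.33 with any culture left out). Members other than NOS1 called in T>C reads at 3h went from 1 to 0 at an adjusted p under 0.05, without the surrogate variable and with size factors from total reads; at 24h they went from 1 to 2 with edgeR; with a culture left out both were 0. In total reads the 3h count went from 1 to 0 and the 24h count from 2 to 1 without the surrogate variable, and from 1 to 0 between 24h and 3h at an adjusted p under 0.05, with 0 at 3h, 0 to 2 at 24h and 0 between 24h and 3h when a culture was left out. In unconverted reads they went from 2 to 1 at 24h without the surrogate variable (0 to 2 with a culture left out) and from 1 to 0 between 24h and 3h at an adjusted p under 0.05, without the surrogate variable, with a mean of at least 20 counts and with a culture left out. Of the pathway list, T>C calls at 3h went from 1 to 0 with the replicate block, without the surrogate variable, with size factors from total reads, at an adjusted p under 0.05 and with any culture left out. At 24h they went from 2 to 1 without the surrogate variable (0 to 2 with a culture left out), and between 24h and 3h from 0 to 1 with the replicate block, edgeR, genes with at least 1 count or size factors from total reads. In total reads they went from 8 to 5 at 24h at an adjusted p under 0.05 and without the surrogate variable (0 to 5 with a culture left out), and between 24h and 3h from 4 to 2 at an adjusted p under 0.05 and to 8 with the replicate block (1 to 2 with a culture left out). The replicate block changed no member's call other than those of PDE5A (lost) and PRKG2 (gained) in T>C reads at 24h.

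Over all genes, T>C calls at 24h went from 599 to 968 with edgeR, and between 24h and 3h from 137 to 530 with the block, 267 with edgeR, 373 without the surrogate variable and 268 with size factors from total reads. In total reads, calls at 3h went from 221 to 141 with the block and 118 without the surrogate variable, and between 24h and 3h from 631 to 1546 with the block. With a culture left out they were 55 to 90 of 216 (T>C, 3h), 67 to 259 of 599 (T>C, 24h), 66 to 154 of 221 (total, 3h) and 163 to 788 of 1751 (total, 24h). Size factors from total reads moved the median T>C change over all genes from -0.01 to -0.10 at 3h, where the calls went from 121 higher and 95 lower to 88 and 186, and from 0.01 to 0.10 between 24h and 3h, where they went from 65 and 72 to 209 and 59. Total reads were not fitted with S9CC47_R6 left out, since svaseq gave no usable surrogate variable there. The causes were not tested. NOS2 and NOS3 had too few reads for a change to be measured. PRKG1 had few reads and wide intervals, in total reads -0.36 to 1.42 around 0.53 at 24h against 0h (95% interval).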
